A study of Mus musculus with 2 samples.

Results

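Dendritic epidermal T cells (DETCs) are the γδT cells that reside between keratinocytes in mouse epidermis. They were taken from the epidermal library of imiquimod (IMQ)-treated skin by their transcripts. A cell was kept when it had at least 200 genes and at most 10% mitochondrial UMIs (unique molecular identifiers, by which copies of 1 captured transcript are counted once). It also needed at least 15 UMIs of *Trdc* and *Trdv4* together per 10000 UMIs, at least 1 UMI of *Cd3d*, *Cd3e* or *Cd3g*, and at most 2 UMIs of *Il17a*, *Il17f* and *Il22* together. *Ptprc*, which encodes CD45, was not required. The gate kept 418 of the 5258 cells in the epidermal library, and of 10634 cells in both libraries of the series. The 8 genes of the gate chose the cells, so their levels in DETCs are given as a description and support nothing.

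DETCs are seeded in the epidermis before birth and stay there, extending dendrites between keratinocytes. Most carry the same canonical Vγ5Vδ1 receptor, in the Heilig and Tonegawa naming, which pairs *Tcrg-V5* with *Trdv4*. They are known for surveying stressed keratinocytes through their receptor and through natural killer receptors such as NKG2D, and for releasing growth factors and chemokines in wounds. Dermal γδT cells, in contrast, are known as a main source of IL-17 in psoriasiform skin.

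The study applied IMQ, an agonist of Toll-like receptor 7, to wild type C57BL/6 mice, aged 10 weeks by the labels, for 5 days, and made 1 droplet-based 3′ library from the dermis and 1 from the epidermis. The labels name the ear as the treated site and give both groups the same strain, genotype, age and treatment, whereas the study's methods give a younger age. No untreated sample of these epidermal or dermal immune cells is among the libraries analysed here, and whether several animals were pooled is not given in the sources used here. Live cells of the epidermis and, by the methods, CD45+ live cells of the dermis were loaded. The epidermal library held 108768396 UMIs and the dermal library, of 5376 cells, 41258087. With a single library per tissue no test was possible, since cells taken from 1 library do not replicate a tissue. Intervals are exact at 95% and take in counting error alone, not the spread between cells or animals.

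The label was set beside the segments of the canonical DETC receptor and beside other DETC genes, and the segment counts were too few to settle it. *Trdv4* is a gate gene, so its counts are a description, and the segment outside the gate, *Tcrg-V5*, was sparse. Their coding V exons, read from GENCODE M21 for GRCm38 and printed 5′ to 3′, are shown because together they form the canonical receptor. *Trdv4* alone is used by other γδT cells too. Capitals mark TACTACTGT, the codons for tyrosine, tyrosine and cysteine that lie near the 3′ end of both V segments. *Trdv4* lies on the plus strand at chr14:54075217-54075515 and *Tcrg-V5* on the plus strand at chr13:19192428-19192725.
Trdv4: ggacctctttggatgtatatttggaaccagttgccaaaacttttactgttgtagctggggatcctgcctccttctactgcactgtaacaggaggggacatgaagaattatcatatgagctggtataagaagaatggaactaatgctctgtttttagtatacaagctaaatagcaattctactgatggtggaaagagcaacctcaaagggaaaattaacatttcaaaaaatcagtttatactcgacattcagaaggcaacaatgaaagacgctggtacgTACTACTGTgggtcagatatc
Tcrg-V5: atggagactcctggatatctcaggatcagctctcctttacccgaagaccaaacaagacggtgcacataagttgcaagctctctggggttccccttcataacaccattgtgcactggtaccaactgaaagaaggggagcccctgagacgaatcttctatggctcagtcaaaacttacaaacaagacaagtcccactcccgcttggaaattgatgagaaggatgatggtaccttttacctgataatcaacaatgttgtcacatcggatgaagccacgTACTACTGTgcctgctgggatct
*Trdv4* gave 150 UMIs in 119 of the 418 DETCs and *Tcrg-V5* gave 19 UMIs in 19 cells. The other V segments of the γ locus gave 5 UMIs for *Tcrg-V1*, 34 for *Trgv2*, 2 for *Tcrg-V4*, 1 for *Tcrg-V6* and 0 for *Tcrg-V3* and *Tcrg-V7*. The most counted Vγ segment was thus *Trgv2*, not the *Tcrg-V5* of the canonical receptor. At this depth 52 DETCs had a UMI of any Vγ segment, or 12.4% (interval, 9.43 to 16.0). A V segment lies at the far end of the transcript from the 3′ tag that was read, so these counts describe few receptors and the receptor pairing was not tested. Among the γ constant genes, *Tcrg-C1* stood at 2116 CPM (UMIs scaled to 1000000 summed UMIs of the group), *Tcrg-C4* at 189 and *Tcrg-C2* at 125. *Tcrg-C1*, *Tcrg-C2* and *Tcrg-C4* are related in sequence, and how the counting split reads between them is not known.

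**Figure D1:**
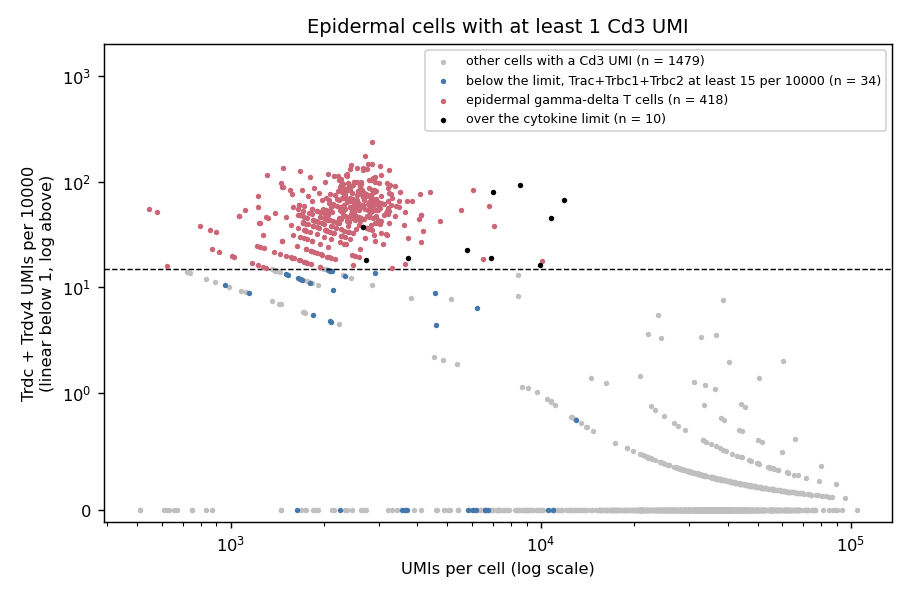
Each point is 1 of the 1941 epidermal cells that passed the filters and had at least 1 UMI of *Cd3d*, *Cd3e* or *Cd3g*, by UMIs per cell (x axis) and by *Trdc* and *Trdv4* UMIs per 10000 (y axis); the dashed line is the limit of 15. The 418 DETCs lie above the line between 544 and 10068 UMIs, and most other cells have many more UMIs and lie below 1 per 10000.

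Of 4173 epidermal cells that passed the filters on genes and mitochondria, 1941 had a *Cd3* UMI and 428 of these passed the receptor limit. *Trdc* and *Trdv4* together ranged from 15.1 to 235 per 10000 among DETCs, with a median of 52.3. The cells just inside the limit stood at 15.1, 15.4 and 15.4 and those just outside at 14.98, 14.8 and 14.7, so the limit did not fall in a gap: 30 DETCs lay under 20 and 35 cells with a *Cd3* UMI lay between 10 and 15. The cytokine limit, in contrast, fell in a gap. Of the 428 cells, 410 had 0 UMIs of the 3 cytokines, 8 had 1, none had 2, and the 10 cells over the limit had 8 to 126. The plot of *Cd3*-positive epidermal cells shows the gate.

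DETCs were small in RNA content. They had a median of 2351 UMIs (544 to 10068) and 1186 genes, against 28033 UMIs in the keratinocyte gate (1752 cells with no *Cd3* and no *Ptprc* UMI and at least 100 UMIs of *Krt5*, *Krt14*, *Krt1* and *Krt10* per 10000) and 7848 in the Langerhans gate (105 cells with no *Cd3* UMI, at least 5 UMIs of *Cd207* and at least 20 of *Cd74* per 10000). A *Ptprc* UMI was seen in 292 DETCs, or 69.9%, so an extraction that asks for one would miss the remaining DETCs. *Trdc* was found in all 418 cells, 370 cells had at least 5 UMIs of *Trdc* and *Trdv4*, 400 had at least 5 *Cd3* UMIs, and only 1 cell rested on 1 receptor UMI. Between both libraries 45 cell barcodes were shared, 1 of them a DETC.

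Transcripts of other cells were present in DETCs. *Krt14*, the keratin of basal keratinocytes, was found in all 418 DETCs at 4563 CPM, against 18686 in the keratinocyte gate and 3.08 (1 UMI) in dermal γδT cells. The 20 genes of the keratinocyte marker list summed to 11999 CPM in DETCs, 47322 in the keratinocyte gate, 8233 in the Langerhans gate and 86.2 in dermal γδT cells. None of the 20 was at 0 in DETCs and none was higher in DETCs than in the *Cd3*-negative epidermal cells. Their ratio of DETC to keratinocyte level had a median of 0.254 and ran from 0.172 to 0.624, as the plot of keratinocyte transcripts shows. *S100a8* and *S100a9*, alarmins that IMQ-treated keratinocytes and neutrophils express, stood at ratios of 0.301 and 0.271. Keratinocyte genes in DETCs are read beside this level. In the rankings below, a gene is named as high in DETCs only where its CPM exceeded that of the *Cd3*-negative epidermal cells. The counts of gene lists against dermal γδT cells were made without that condition.

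**Figure D2:**
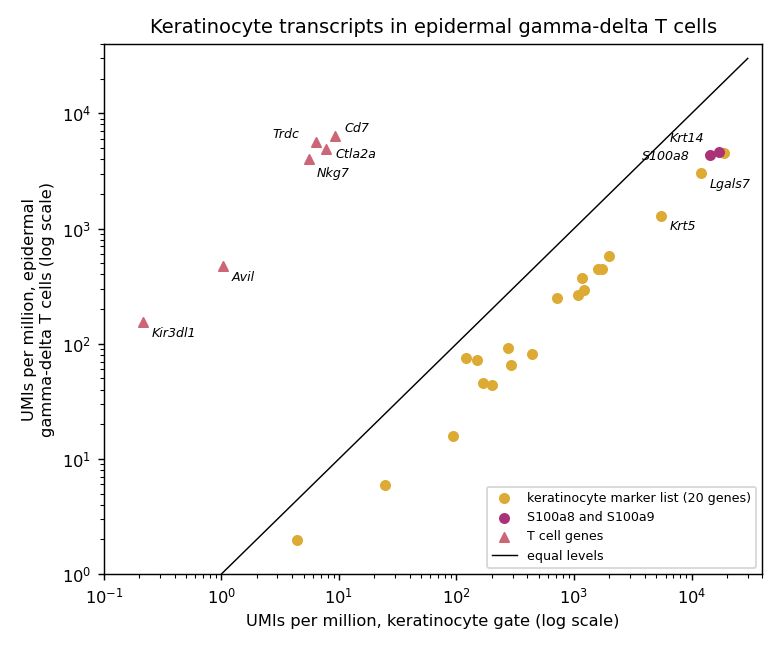
Each point is a gene, by its level in the 1752 cells of the keratinocyte gate (x axis) and in the 418 DETCs (y axis), both in CPM on log scales; the line marks equal levels. The 20 keratinocyte markers and *S100a8* and *S100a9* lie below the line, at a median ratio of 0.254 for the markers, and *Trdc*, *Cd7*, *Ctla2a*, *Nkg7*, *Avil* and *Kir3dl1* lie far above it.

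Transcripts of Langerhans and myeloid cells were seen as well. The 12 Langerhans markers summed to 1334 CPM in DETCs and 90811 in the Langerhans gate, with *Cd74*, the invariant chain, as the most abundant at 416 CPM and *Cd207*, the gene of langerin, at 3 UMIs. Of 418 *Cd74* UMIs, 150, 91 and 55 lay in 3 cells. The 16 myeloid markers summed to 9164 CPM in DETCs and 31398 in the keratinocyte gate, led by *S100a9*. Their only gene at 0 was *Cpa3*, and 1 cell held 564 of the 4617 *S100a9* UMIs. *Il1b* and *Cxcl2* rested on 1 cell too, with 50 of 76 and 86 of 106 UMIs, and no level of these genes is drawn from DETCs. Without that cell *Cxcl2* stood at 20.1 CPM. Of the melanocyte list 4 of 8 genes had a UMI, and apart from *Kit* (29 UMIs in 28 cells) none had more than 2. In the reverse direction, among 3052 cells of the keratinocyte gate taken without its *Cd3* condition, 17.8% had a *Trdc* UMI (interval, 16.4 to 19.2) at 6.98 CPM, at a median of 31446 UMIs, so a share of cells with a T cell transcript is not read in deep epidermal cells.

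The highest levels in DETCs, leaving out the gate genes, mitochondrial and ribosomal protein genes and genes no higher than in *Cd3*-negative epidermal cells, such as *S100a9* and *Krt14*, were those of *Malat1*, a nuclear RNA, at 14359 CPM, of *Tmsb4x*, which binds actin monomers, at 9060, and of *Fth1*, the heavy chain of ferritin, at 7333. *Cd7*, a receptor of T cells and natural killer cells, followed at 6405 CPM (interval, 6249 to 6563). *Ctla2a*, an inhibitor of cathepsin L-like proteases, reached 4898 CPM and *Nkg7*, a protein of cytotoxic granules, 4021. Both are near 0 in keratinocytes, at 7.79 and 5.61 CPM. *Vim* at 2843, *Lgals3* at 2824 and *S100a4* at 3346 CPM were also among the leading 15, but Langerhans cells had as much or more of *S100a4* and *Lgals3*, with 4329 and 4150 CPM. CPM from 3′ tags is read within a gene, and no length correction was made between genes.

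DETCs were then set beside the *Cd3*-negative epidermal cells, to leave out transcripts that the whole library shared. With both groups together, 11361 genes had 50 UMIs or more, and 3414 of these, or 30.1%, were at least 2-fold higher in DETCs. The 20 largest ratios among genes with at least 50 UMIs in DETCs held *Cd247*, the ζ chain of the receptor complex, at 721 against 1.16 CPM in the keratinocyte gate, *Trat1*, an adaptor that stabilises the T cell receptor at the surface, at 1125 against 1.03, *Cd2* at 622 against 0.835 and *Prf1*, which encodes perforin, at 367 against 0.300. *Ctsw*, a cathepsin of cytotoxic lymphocytes, stood at 1275 CPM, *Tox*, a transcription factor of T cell development, at 90.7 and *Klrb1f*, a receptor of the NKR-P1 family, at 53.8. *Tcrg-C1*, *Tcrg-C2* and *Tcrg-C4* were among these 20 as well. The others were *Fam71b*, *Nrgn*, *Jakmip1*, *Trpm6*, *Tnfsf8*, *Kir3dl1*, *Gcsam*, *Mchr1*, *Nkg7* and *Cd7*.

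**Figure D3:**
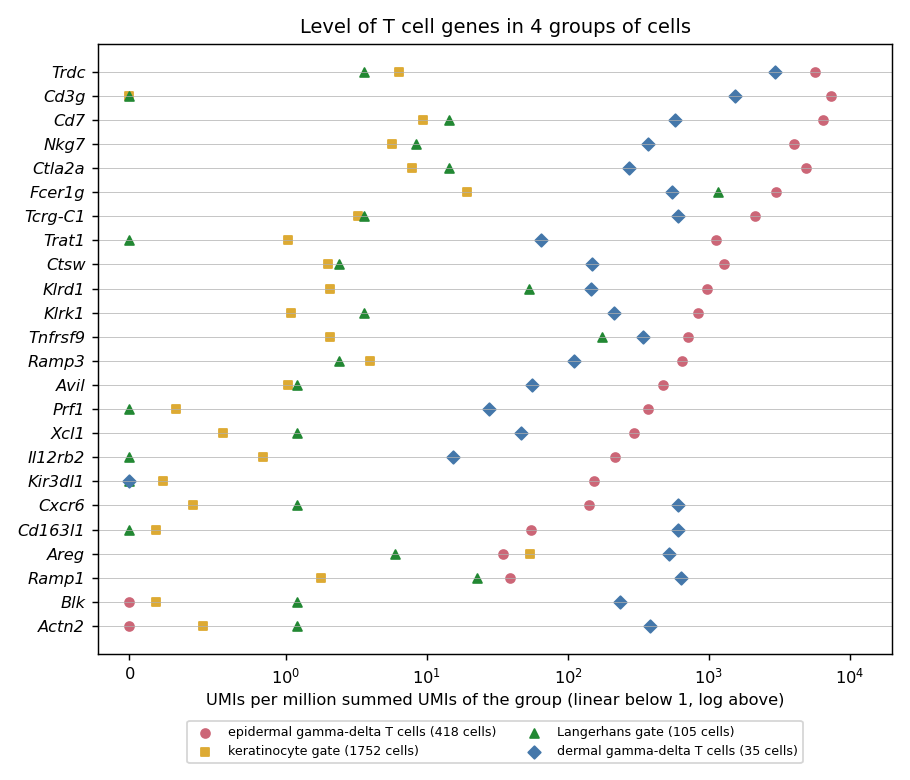
Rows are genes and the x axis is the level in CPM, linear below 1 and log above; each symbol is 1 group, and counting intervals are not drawn. DETCs lead from *Trdc* at 5691 down to *Kir3dl1* at 153 CPM, dermal γδT cells lead from *Cxcr6* down to *Actn2*, and *Blk* and *Actn2* lie at 0 in DETCs.

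Of the markers that give the cells their name, 3 took no part in the gate. *Avil*, the gene of advillin, an actin-bundling protein, stood at 469 CPM (interval, 428 to 514) and was found in 253 DETCs. *Il12rb2*, the β2 chain of the IL-12 receptor, stood at 216 CPM (188 to 247) in 151 cells. *Kir3dl1*, a receptor of the killer cell immunoglobulin-like family on chromosome X, stood at 153 CPM (130 to 180) in 122 cells. The keratinocyte gate had 1.03, 0.856 and 0.214 CPM of the 3 genes. After thinning to 1000 UMIs per cell, at which 8 DETCs were too shallow, 37.3% of DETCs had an *Avil* UMI (interval, 32.6 to 42.2), 18.8% an *Il12rb2* UMI (15.1 to 22.9) and 13.9% a *Kir3dl1* UMI (10.7 to 17.6). In thinned keratinocytes these shares were 0.184%, 0.0612% and 0%, of 1634 cells. At full depth 326 DETCs, or 78.0%, had a UMI of at least 1 of the 3. The 3 genes lie at chr10:127000709-127020994 (*Avil*), chr6:67291318-67376188 (*Il12rb2*) and chrX:136517999-136534309 (*Kir3dl1*) in GRCm38.

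To ask how DETCs differ from γδT cells of the other skin layer, they were set beside 35 dermal cells that passed the same receptor, *Cd3* and quality limits, without the limit on cytokines. These 35 cells held 324941 UMIs, with a median of 8459 per cell, against 1003753 UMIs in DETCs. They were not uniform. Of the 35, 6 had an *Avil* UMI, and all of these had *Cd7* and *Nkg7* UMIs and at most 2 cytokine UMIs, while *Blk* and *Actn2* were at 0 in them. In the other 29 the median was 26 cytokine UMIs, and *Cd7* was found in 4. These counts are not thinned, and the 6 cells were the shallower, with a median of 4079 UMIs against 8531. One of the 6, with 21664 of their 42362 UMIs, held 1199 UMIs of Langerhans markers. The other 5 had 45 such UMIs in 20698. Values without the 6 cells, a choice made with these values in view, are given beside genes in which they held most dermal UMIs, as a log2 ratio or as counts. The 12 dermal cells that met the cytokine limit as well included the 6, and many of the lists below are also counted against the 12. Tissue, library, depth and cell state cannot be told apart in this comparison.

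At least 50 UMIs over both groups were reached by 3548 genes. DETCs were at least 2-fold higher in 907 of them, or 25.6%, and at least 2-fold lower in 201, or 5.67%, with a median log2 ratio of 0.42. Of the 907, 146 were no higher in DETCs than in *Cd3*-negative epidermal cells, the keratinocyte markers among them, and of the 201, 73 were no higher in dermal γδT cells than in *Cd3*-negative dermal cells. With mitochondrial, ribosomal and keratinocyte marker genes left out of the totals, the median moved to 0.25 and the counts to 750 and 246, so that 75.3% in place of 81.9% of the genes past 2-fold were higher. Against the 12 dermal cells within the cytokine limit, 593 of 3129 genes, or 19%, were at least 2-fold higher and 161, or 5.15%, were lower, with a median log2 ratio of 0.22. A gene that reached the minimum through DETCs alone could only come out higher, and so the counts below are set beside these shares. Genes that reached it are called measured. All 15 measured keratinocyte markers were higher in DETCs, beside the keratinocyte RNA described above, and of 9 measured Langerhans markers 2 were higher and 7 lower, with 467 of the 571 dermal *Cd74* UMIs in the 6 *Avil*-positive cells and 461 of them in 1 cell. Without the 6 cells 2 of these 9 were higher and 3 were lower, at a median log2 ratio of 0.17. Against the 12 cells within the cytokine limit 2 were higher and 7 lower, at -3.81.

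The receptor and its signal complex was the first group. Of 12 measured genes outside the gate, 8 were at least 2-fold higher in DETCs and 1 was lower, with a median log2 ratio of 1.48. *Cd7* stood at 6405 against 572 CPM, a ratio of 11.2 (9.67 to 13.0). *Fcer1g*, the γ chain shared by Fc and receptor complexes, stood at 2967 against 548 CPM and *Trat1* at 1125 against 64.6 CPM, a ratio of 17.4 (11.3 to 28.2). *Lck*, the kinase that starts receptor signalling, had a ratio of 10.4 (6.15 to 19.2), whereas *Lat*, the adaptor downstream of it, had one of 1.04 (0.894 to 1.22). The lower gene was *Blk*, a Src family kinase known from IL-17-producing γδT cells, with 0 UMIs in DETCs and 76 in dermal γδT cells, at least 78.3-fold lower against the limit of 3 counts. Without the 6 *Avil*-positive dermal cells, the log2 ratio rose from 3.48 to 5.89 for *Cd7* and from 2.43 to 3.28 for *Fcer1g*. Those 6 cells also held 20 of the 21 dermal *Trat1* UMIs and 11 of the 14 *Lck* UMIs. Without them the log2 ratio of *Lck* rose from 3.33 to 5.18. Against the 12 cells within the cytokine limit 7 of 10 were higher and none was lower, with log2 ratios of 2.09 for *Trat1*, 1.43 for *Lck* and 1.01 for *Fcer1g* and with *Cd7* also past 2-fold.

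Transcripts of the β chain locus were present in DETCs, while those of CD4 and CD8 were not seen. *Trbc1* and *Trbc2*, the β constant genes, stood at 731 and 919 CPM, and 372 DETCs, or 89.0% (interval, 85.6 to 91.8), had a UMI of either. *Trac*, the α constant gene, stood at 58.8 CPM in 39 cells. *Cd4*, *Cd8a* and *Cd8b1* had 0 UMIs in all 418 cells, or 0% of cells with one (interval, 0 to 0.879). At a median of 2351 UMIs per cell, no share of cells expressing these genes is read from that. In dermal γδT cells *Trbc1* stood at 360 and *Trbc2* at 702 CPM, and the log2 ratio of *Trbc1* was 1.02, or 0.55 with the cytokine limit. *Trbc1* and *Trbc2* are near-identical in sequence, so the split of reads between them is uncertain, and *Trbc2* also reached 76.8 CPM in keratinocytes.

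Natural killer receptors and their adaptors were higher in DETCs in 7 of 9 measured genes and lower in 1. *Klrd1*, which encodes CD94, stood at 968 against 145 CPM, a ratio of 6.69 (5.00 to 9.17), and *Klrk1*, which encodes NKG2D, at 830 against 212, a ratio of 3.91 (3.05 to 5.07). *Klrb1b* reached a ratio of 12.1 (7.25 to 21.7). *Kir3dl1* had 154 UMIs in DETCs and 0 in dermal γδT cells, at least 16.6-fold higher. *Kir3dl2* had 96 against 3 UMIs, a ratio of 10.4 (3.44 to 51.1), and reads of these related genes may be shared. *Hcst*, which encodes the NKG2D adaptor DAP10, was present at 693 CPM with a ratio of 1.80 (1.49 to 2.20). *Tyrobp*, which encodes the other adaptor, DAP12, was the lower gene, at 78.7 against 397 CPM, and 21 of its 79 UMIs were in 1 cell. Without the 6 *Avil*-positive cells the log2 ratio of *Klrd1* rose from 2.73 to 5.93 and that of *Klrb1b* from 3.55 to 4.84, with 34 of the 47 dermal *Klrd1* UMIs in the deepest of the 6. All 3 dermal *Kir3dl2* UMIs were in the 6 as well. Held to the cytokine limit, the dermal cells left 4 of the 9 genes higher and 1 lower, with log2 ratios of 0.76 for *Klrd1*, 0.88 for *Klrk1*, 1.64 for *Klrb1b*, 1.16 for *Kir3dl2* and -2.98 for *Tyrobp*. Of the 25 listed natural killer receptor genes 18 had a UMI in DETCs, among them *Klrc1* with 100 UMIs and *Klrb1c*, which encodes NK1.1, with 16. The log2 ratio of *Klrc1* over dermal γδT cells was 1.38, and it was 2.36 without the 6 *Avil*-positive cells and -0.07 with the cytokine limit. *Ncr1*, *Klrg1* and *Eomes* had 0, which allows up to 2.99 CPM.

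Of the cytotoxic granule list, 8 genes were measured, 5 were higher and 1 was lower. *Nkg7* had a ratio of 10.8 (9.01 to 13.0), *Prf1* one of 13.2 (6.90 to 29.2) and *Ctsw* one of 8.63 (6.47 to 11.8). The granzymes are the proteases of these granules. *Gzmb* stood at 98.6 CPM in 48 DETCs against 492 CPM in dermal γδT cells, 4.99-fold lower (3.86 to 6.48), or at a log2 ratio of -3.19 with the cytokine limit, and *Gzma* had 0 UMIs, as did *Fasl*, a death ligand. *Gzmc* stood at 172 CPM but in 57 cells only, with a ratio of 2.24 (1.47 to 3.56) that turned to a log2 ratio of -0.75 when dermal cells were held to the cytokine limit. With that limit 3 of the 8 genes were higher and 1 was lower, at log2 ratios of 1.48 for *Nkg7*, 1.81 for *Prf1* and 1.46 for *Ctsw*. *Gzmf* gave 28 UMIs in 12 cells. Of the dermal UMIs, the 6 *Avil*-positive cells held 104 of 121 for *Nkg7*, 8 of 9 for *Prf1*, 30 of 48 for *Ctsw* and 23 of 25 for *Gzmc*, and without these cells the log2 ratios were 6.02 for *Nkg7*, 4.28 for *Ctsw* and 4.29 for *Gzmc*. Altogether 88 DETCs, or 21.1% (17.2 to 25.3), had a UMI of *Gzmb*, *Gzmc* or *Gzmf*, and 218 had a *Prf1* UMI.

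**Figure D4:**
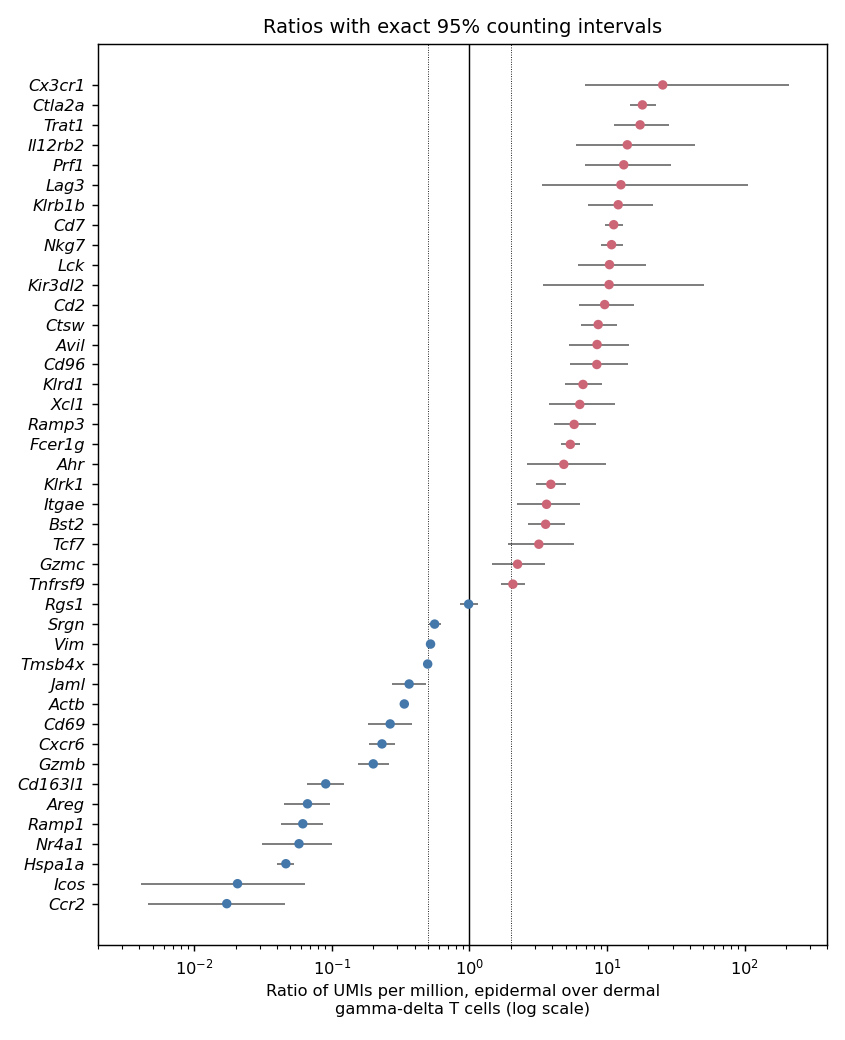
Points are ratios of CPM in DETCs over dermal γδT cells (x axis, log scale), 1 gene a row, and bars are exact 95% counting intervals; dotted lines mark 2-fold. Red points lie at or above 1, with *Cx3cr1* and *Ctla2a* at the top, and blue points below 1, with *Icos* and *Ccr2* at the bottom, and genes at 0 in either group are not drawn.

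The type 17 programme lay at the other end. All 7 measured genes outside the gate were at least 2-fold lower in DETCs, with a median log2 ratio of -3.18. *Blk*, counted above with the receptor complex, was among the 7. With 0 UMIs in DETCs it reached the minimum through dermal cells alone and could only come out lower. The cytokine limit chose DETCs against IL-17, and the dermal cells had no such limit, so this direction is partly set by the gate. *Cd163l1*, a scavenger receptor family member known from γδT cells, stood at 54.8 against 606 CPM, 11.1-fold lower (8.17 to 15.2). *Maf* and *Cxcr6*, a chemokine receptor, were 9.27-fold and 4.32-fold lower. *Il23r*, *Sox13* and *5830411N06Rik*, a gene of the same family as *Cd163l1*, had 0 UMIs in DETCs, with 13, 8 and 14 in dermal cells. Held to the same cytokine limit, the 12 dermal cells, with 81072 UMIs, gave log2 ratios of -2.94 for *Cd163l1* and -1.55 for *Cxcr6*, in place of -3.46 and -2.11. Only 3 of the 7 genes were still measured in that comparison. The third, *Batf*, a factor of the AP-1 family, turned from a log2 ratio of -1.27 to 0.82.

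Cytokine and chemokine genes were few in DETCs. *Ltb*, lymphotoxin β, stood at 541 CPM and *Xcl1*, a chemokine for cross-presenting dendritic cells, at 293, and of the 26 listed genes only *Cxcl2*, by the 1 cell described above, exceeded 100 CPM besides them. Of 6 measured, *Il2*, *Xcl1* and *Il16* were higher and 2 were lower. Those 2 were *Cxcl2* and *Il1b*, whose DETC UMIs lie mostly in 1 cell, so their direction is not read. *Xcl1* was found in 143 DETCs at a ratio of 6.35 (3.78 to 11.5). All 15 dermal *Xcl1* UMIs were in *Avil*-positive cells, and with the cytokine limit its log2 ratio was 0.62 and that of *Il2* fell from 1.68 to 0.82. Of the 6 genes only *Il16* was then higher, and *Cxcl2* and *Il1b* again made up the lower ones. *Il2* had 54 UMIs in 50 cells, or 53.8 CPM against 3.19 in keratinocytes, and *Il13* had 14 UMIs in 14 cells. *Ifng*, *Il4*, *Il10* and *Il21* were at 0. *Ccl3* and *Ccl4* gave 1 and 5 UMIs in DETCs, and 42 and 36 in dermal γδT cells.

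The growth factors for which DETCs are known in wounds were at or near the floor. *Igf1*, *Fgf7* and *Fgf10*, the last 2 of them keratinocyte growth factors, had 0 UMIs, and *Fgf9* had 1. *Areg*, a ligand of the epidermal growth factor receptor, stood at 34.9 CPM, below the 54.0 of keratinocytes and below the 523 of dermal γδT cells, at a log2 ratio of -3.89. *Tgfb1* was the most abundant of the list at 164 CPM, with a ratio of 1.05 (0.761 to 1.46). Of the 14 genes 3 were measured in the comparison with dermal cells, and 2 of these, *Areg* and *Timp1*, were lower. Within the cytokine limit *Areg* no longer reached the minimum, at a log2 ratio of -1.57, and of the 2 still measured *Timp1* was lower, at -1.15.

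Genes of residence and adhesion lay on both sides. Of 11 measured, 2 were higher, a share not above the 25.6% of all measured genes, and 3 were lower. *Itgae*, the αE integrin that binds E-cadherin, stood at 190 against 52.3 CPM, a ratio of 3.64 (2.21 to 6.37), and its partner *Itgb7* at 453 against 265, a ratio of 1.71 (1.36 to 2.18). *Cdh1*, E-cadherin itself, had 69 UMIs against 1, but stood at 33.2 CPM in keratinocytes. *Cxcr6*, *Cd69* and *Klf2*, the last a factor that drives exit from tissue, were lower by 4.32-fold, 3.76-fold and 10.5-fold. *S1pr1*, the receptor for exit into lymph, was at 0 in DETCs with 5 UMIs in dermal cells, and *Ccr10* and *Ccr4*, receptors for skin homing, had 2 and 1 UMIs. *Gpr55*, a lipid receptor, had 39 UMIs in DETCs and 0 in dermal cells, at least 4.21-fold higher. The group moved either way with the dermal cells chosen. Without the 6 *Avil*-positive cells 4 of 11 were higher and 3 lower, at a median log2 ratio of 0.78, and against the 12 cells 2 were higher and 4 lower, at -0.98, in place of 0.53. Against the 12 the log2 ratios were 1.04 for *Itgae*, 0.18 for *Itgb7*, -2.81 for *Cd69* and -4.20 for *Klf2*. *Cd9*, a tetraspanin, went from 0.53 to 3.72 without the 6 cells and to -1.34 against the 12.

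Costimulatory genes also split, with 4 of 7 measured higher and 2 lower. *Tnfrsf9*, which encodes 4-1BB, stood at 707 CPM, a ratio of 2.07 (1.69 to 2.55), and *Cd96*, a nectin receptor, at 493, a ratio of 8.43 (5.34 to 14.1). *Jaml*, whose product binds a keratinocyte ligand and costimulates DETCs, was found in 86 cells at 106 CPM, 2.74-fold lower than in dermal γδT cells (2.05 to 3.65). *Icos* had 3 UMIs against 47. The log2 ratio of *Cd96* rose from 3.04 to 3.88 without the *Avil*-positive cells, and with the cytokine limit those of *Cd96* and *Tnfrsf9* were 1.46 and 0.87, with 2 of 6 measured genes higher and 1 lower. Inhibitory receptors and regulators had 2 of 5 measured genes higher and 3 lower. *Lag3* was higher at 77.7 CPM, with 78 against 2 UMIs. *Pdcd1*, which encodes PD-1, had 0 against 37 UMIs and *Ctla4* 0 against 5, and neither was among the measured genes. With the cytokine limit only 2 of the 5 were measured, and both were higher, *Lag3* at a log2 ratio of 2.08.

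Among cytokine receptors, 2 of 9 measured were at least 2-fold higher, a share not above the 25.6% of all measured genes, and none was lower. *Il2rb* and *Il2rg*, the signalling chains for IL-2 and IL-15, stood at 298 and 336 CPM. *Il2ra* and *Il7r*, at 7 and 2 UMIs, were 23 and 38 in dermal γδT cells. *Tgfbr2* had a ratio of 2.84 (1.63 to 5.36), and 8 of its 14 dermal UMIs were in the 6 *Avil*-positive cells. This group depended on the dermal cells chosen. Without the 6 cells 3 of 9 were higher, and the log2 ratio of *Tgfbr2* rose from 1.46 to 2.42. Against the 12 cells within the cytokine limit none of 8 was higher and 3 were lower, with log2 ratios of 0.07 for *Tgfbr2* and 0.41 for *Il2rg*, the other gene past 2-fold against all 35 cells. In the type 1 list 3 of 7 measured were higher, led by *Il12rb2* at a ratio of 14.0 (5.93 to 43.7) and a log2 ratio of 3.68 that was 1.68 with the cytokine limit, with *Il12rb1* at 2.40 (1.09 to 6.28), yet *Tbx21* and *Ifng*, the factor and the cytokine of that programme, were at 0. All 5 dermal *Il12rb2* UMIs lay in the 6 *Avil*-positive cells, and none of the 7 dermal *Il12rb1* UMIs lay in the 12 cells within the cytokine limit. Against the 12 cells 2 of the 7 were higher and 1 was lower.

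Transcription factors had 4 of 15 measured genes higher, near the 25.6% of all measured genes, and 3 lower, at a median log2 ratio of 0.08. *Id2*, an inhibitor of E proteins, was the most abundant at 918 CPM. *Ahr*, the aryl hydrocarbon receptor, on which DETCs are known to depend, stood at 164 against 33.9 CPM, a ratio of 4.86 (2.64 to 9.92), with *Ahrr*, its repressor and target, at 30 UMIs against 1. *Ikzf1* and *Tcf7* had ratios of 3.64 (2.06 to 6.99) and 3.20 (1.91 to 5.73), and *Runx3* stood at 194 CPM, a ratio of 1.97 (1.35 to 2.96). Without the *Avil*-positive cells the log2 ratio of *Tcf7* rose from 1.64 to 2.23. *Nr4a1*, *Nr4a2* and *Bhlhe40*, induced by receptor signalling, were the lower genes, and none of them reached the minimum against the 12 cells within the cytokine limit. There *Ahr* and *Bcl11b* were the 2 higher of 12 measured factors, at log2 ratios of 1.57 and 1.08, and *Id2* was the lower one, at -1.09, while *Tcf7*, *Ikzf1* and *Runx3* stood at 0.59, 0.66 and 0.12. *Ikzf3* had 0 UMIs in DETCs and 30 in dermal cells.

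Early response genes were lower in 12 of 17 measured, and none was higher, at a median log2 ratio of -1.34. *Junb* stood at 342 against 1526 CPM and *Hspa1a*, a heat shock protein, at 236 against 5087. *Hspa1a* was at 212 CPM in *Cd3*-negative epidermal and 5039 in *Cd3*-negative dermal cells. Against the 12 dermal cells within the cytokine limit 9 of 14 were lower and none was higher. Such genes respond to tissue digestion, and digestion, library and cell type cannot be told apart here. Actin genes were lower in 7 of 14 measured genes and higher in 1, *Avil*, at a ratio of 8.47 (5.30 to 14.4), with the 6 dermal cells chosen for *Avil* holding all 18 dermal UMIs. *Tmsb4x* was 2.01-fold and *Actb* 2.97-fold lower, and *Actn2*, an α-actinin, had 0 UMIs against 124, at least 128-fold lower. With the cytokine limit 3 of 13 were lower and 1 was higher, and the log2 ratios moved from 3.04 to 1.04 for *Avil*, from -1.01 to -0.90 for *Tmsb4x* and from -1.57 to -0.97 for *Actb*.

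Among receptors of neural signals, *Ramp3* and *Ramp1* went opposite ways. Both encode proteins that shape the ligand choice of calcitonin family receptors. *Ramp3* stood at 640 CPM in DETCs against 111 in dermal γδT cells, a ratio of 5.77 (4.13 to 8.32), and *Ramp1* at 38.9 against 631, 16.2-fold lower (11.5 to 23.5). *Calcrl*, the receptor they partner in the receptor for calcitonin gene-related peptide and adrenomedullin, had 4 UMIs in DETCs. Without the 6 *Avil*-positive cells the log2 ratio of *Ramp3* rose from 2.51 to 3.45. *Nmb*, a neuropeptide gene, stood at 61.8 CPM, with a ratio of 2.51 (1.20 to 6.07). Under the cytokine limit the log2 ratio of *Nmb* fell from 1.25 to 0.53, while that of *Ramp3* was 1.27 and that of *Ramp1* moved from -4.01 to -2.88. Of 16 listed genes 8 had a UMI in DETCs, and *Trpv1* and *Trpa1* were among those at 0.

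Of 4 measured interferon-stimulated genes, 2 were higher, with *Bst2* at 507 CPM and a ratio of 3.58 (2.65 to 4.96), and 2 were lower, with *Ly6a* at 848 CPM and a log2 ratio of -1.43. Held to the cytokine limit, 3 were measured, 1 was higher and none was lower, and the log2 ratio of *Ly6a* was -0.50. Cell cycle genes were lower in 5 of 14 and higher in none, and none of the 20 was higher in DETCs than in *Cd3*-negative epidermal cells, 2620 CPM in sum against 6614. Metabolic genes were higher in 2 of 15, a share not above the 25.6% of all measured genes, and lower in 4. *Fabp5*, the most abundant at 1645 CPM, stood at 5484 in keratinocytes. Its log2 ratio over dermal γδT cells was 1.76, but 123 of the 157 dermal *Fabp5* UMIs lay in 1 *Avil*-positive cell. Without the *Avil*-positive dermal cells the log2 ratio rose to 3.88, and with the cytokine limit it was 0.03. With that limit 3 of 8 cell cycle genes were lower and none was higher, and 3 of 13 metabolic genes were higher and 2 lower.

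Ranked by log2 ratio over dermal γδT cells with the pseudocount, among genes above the epidermal background, the first 15 genes all had 0 dermal UMIs. They reached the minimum through DETCs alone, their order follows their counts in DETCs, and their bounds lie below the ratio of *Ctla2a* given here. The bounds are for all 35 cells, in which a count of 0 allows up to 9.23 CPM, against 37.0 CPM in the 12 cells within the cytokine limit. *Kir3dl1* came first, followed by *Tmem121*, *Orm3*, *Fam174b* and *Adgrb2* with 110, 107, 98 and 87 UMIs in DETCs, at least 11.9-fold, 11.5-fold, 10.6-fold and 9.39-fold higher. *Orm3* belongs to the orosomucoid family, and *Mchr1*, a receptor of melanin-concentrating hormone, gave 57 UMIs in 50 DETCs. The remaining ones were *Pitpnm2*, *Gcsam*, *Arap3*, *Zmat4*, *2510009E07Rik*, *Mapk8ip1*, *Pbx4*, *Fam71b* and *Hpgds*, and *Hpgds* stood higher in the Langerhans gate, at 478 CPM, than in DETCs, at 49.8. Genes with dermal UMIs included *Cx3cr1*, at a log2 ratio of 4.35 that was 2.35 with the cytokine limit. *Ctla2a* had a ratio of 18.1, and 69 of its 88 dermal UMIs were in the 6 *Avil*-positive cells. Without these cells the log2 ratio of *Ctla2a* rose from 4.17 to 6.15, and with the cytokine limit it was 2.23. In the other direction, among genes higher in dermal γδT cells than in *Cd3*-negative dermal cells, *Actn2*, *Blk*, *Cryba4*, *Ccr2*, *Ckb* and *Icos* led, followed by *Bcl2a1d*, *Hspa1a*, *Bcl2a1b*, *Nr4a1*, *Ramp1*, *Cxcl3*, *Areg*, *Serpinb1a* and *Bhlhe40*. With the cytokine limit the log2 ratio of *Cxcl3* moved from -3.92 to -0.53 and that of *Serpinb1a* from -3.87 to -2.41. *Ccr2*, a receptor of monocytes and of IL-17-producing γδT cells, had 4 UMIs in DETCs and 75 in the 35 dermal cells.

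Other epidermal cells with a *Cd3* UMI were set beside DETCs, and their positions in the tissue were not measured. The 10 cells over the cytokine limit had *Trdc* at 4639 CPM, against 5691 in DETCs, with *Cd7* in 3, *Nkg7* in 3 and *Avil*, *Kir3dl1* and *Prf1* in none. *Blk* was found in 9 and *Ramp1* and *Cxcr6* in all 10, and *Cxcr6* stood at 1841 CPM against 140 in DETCs. These 10 cells were selected on *Il17a*, *Il17f* and *Il22*, so their type 17 level is fixed by the gate. Another 34 cells fell below the receptor limit with at least 15 UMIs of *Trac*, *Trbc1* and *Trbc2* per 10000. They had *Cd7* at 1500 CPM, *Cd8b1* in 4 cells and *Trdc* in 21. *Il13* was found in 4 of them, with 42 of its 54 UMIs in 1 cell. Genes high in DETCs were found too, with *Ctla2a* in 27 cells, *Nkg7* in 22, *Avil* and *Prf1* in 7 each and *Kir3dl1* in 4. *Trdc* and *Trdv4* together ran from 0 to 14.5 per 10000 in these cells. Whether some of them are DETCs that the receptor limit left out was not tested. *Xcl1*, at 293 CPM in DETCs, had 0 UMIs in these 34 cells, which allows up to 22.4 CPM. The remaining 1479 cells with a *Cd3* UMI had a median of 35023 UMIs.

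Variation among DETCs was measured at equal depth. With cells thinned to 1000 UMIs, the variance of 2134 genes with at least 30 thinned UMIs over 410 cells was a median of 1.01 times the mean, which is what random sampling of transcripts gives and what low counts give in any cells, and 28 genes, or 1.31%, exceeded 2. *Gzmc* had the highest ratio of the named genes, 7.43, and 3 cells held 47, 22 and 12 of its 173 UMIs. *Gzmb*, at 2.28, had 10 UMIs in its richest cell. *Ramp3*, at 2.95, was found in 197 cells, with up to 18 UMIs, and *Rgs1* and *Rgs2*, regulators of G protein signalling, had 2.71 and 2.89. Of the broadly expressed genes *Ctla2a* had 2.61, ranging from 0 to 183 per 10000 around a median of 41.4, and *Cd7* had 2.17, from 0 to 183 around 61.5. *Cx3cr1*, a fractalkine receptor, had 20 of its 157 UMIs in 1 cell. *Hspa1a*, *Tmsb4x*, *Malat1*, *Ftl1*, *Lgals3*, *Fth1* and *Emb* complete the 15.

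**Figure D5:**
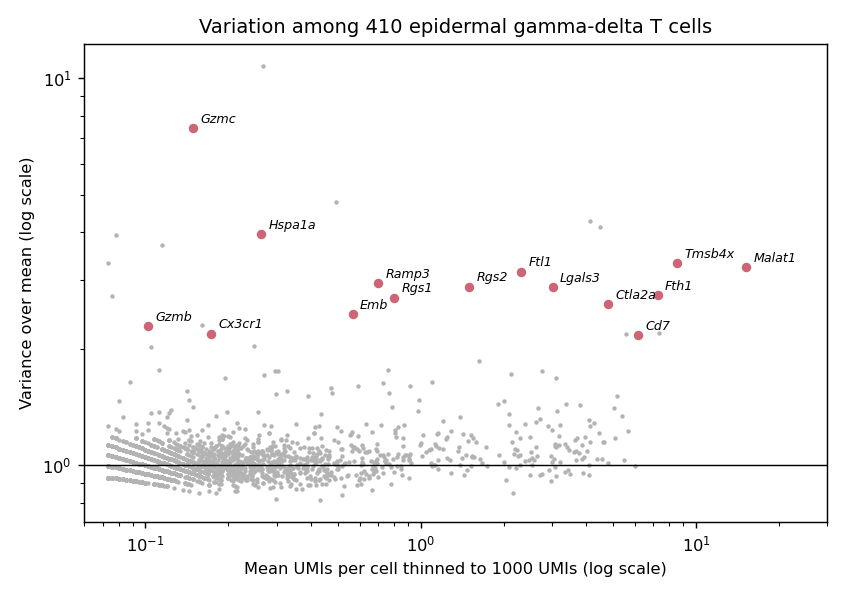
Each point is 1 of 2134 genes, by its mean (x axis) and its variance over mean (y axis) among 410 DETCs thinned to 1000 UMIs, on log scales; named points are the 15 highest of the genes above the epidermal background. Most genes lie near the line at 1, *Gzmc* stands at 7.43, and the other named genes lie between 2.17 and 3.95.

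The 20 cell cycle genes together ranged from 0 to 230 UMIs per 10000 with a median of 22.9, and 3 cells, at 230, 224 and 196, stood apart from the fourth at 75.3. Keratinocytes had a median of 63.2, and keratinocyte RNA was present in DETCs, so no share of cycling cells was read.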

How the data were processed

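Droplet-based 3′ RNA libraries from IMQ-treated mouse skin, 1 of the epidermis and 1 of the dermis, were analysed from the counts the authors deposited. The authors counted UMIs per gene and cell with CellRanger (version 3.0.2 in the matrix headers; build mm10 in the submitters' processing notes; annotation not given in the sources used here) and deposited the counts, not normalized, for the barcodes kept as cells. Of 31053 gene identifiers, 30934 were found in GENCODE M21, which gave positions. UMIs were summed over the cells of a group and scaled to 1000000 (CPM). Ratios used sums plus a pseudocount of 0.5 UMIs for log2 values and the raw sums for ratios with exact conditional intervals. A count of 0 was set at 3 counts for bounds, which leave out the counting error of the other group and are not exact intervals. Groups were gates on transcripts, not clusters, and no doublet was removed in the main analysis. Shares were compared after thinning to 1000 UMIs. The ratio script was tested on simulated data. The members, gene lists and rules were chosen with earlier results of these data known. Genes were named from these lists (those of highest level or of largest or smallest ratio), from the 15 largest and smallest ratios over dermal γδT cells, the 20 largest over *Cd3*-negative epidermal cells, the 15 highest levels and the 15 highest variances over the mean, leaving out gate, mitochondrial, ribosomal and V, D and J genes, genes no higher in DETCs than in *Cd3*-negative epidermal cells or, for the smallest ratios instead, genes no higher in dermal γδT cells than in *Cd3*-negative dermal cells. Other list genes were picked with their values in view. Alternatives were other limits of the gate, a doublet score (Scrublet in scanpy 1.11.5), other dermal cells, scalings, minimums, pseudocounts and thinning depths. The software was scipy 1.17.1, numpy 2.4.6 and pandas 2.3.3 under Python 3.11.15.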

Additional observations from a re-analysis of the deposited data

How the results depend on the processing

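The number of DETCs was 418 and lay between 292, with a *Ptprc* UMI required, and 451, with a receptor limit of 10 per 10000, over 9 alternatives. It was 416 without the highest Scrublet scores, which marked 139 of 4173 cells, 2 of them DETCs, and 414 without cells rich in *Cd74* or *S100a9*, an alternative chosen after seeing the data. Against 907 genes at least 2-fold higher and 201 lower than in dermal γδT cells, a minimum of 20 UMIs gave 1805 and 389 since more genes were tested, and the 12 dermal cells within the cytokine limit gave 593 higher genes. The other alternatives kept both counts within 1.5 times. The log2 ratio of *Gzmc* reversed, to -0.75, with those 12 dermal cells, and the cause was not tested. Without the *Avil*-positive dermal cells, chosen after seeing the data, 1036 genes were higher and 185 lower. No paired analysis was possible because the dermis and the epidermis gave 1 library each. The spread between animals is unknown for the same reason. Leaving mitochondrial, ribosomal and keratinocyte genes out of the totals gave 750 and 246 and moved the median log2 ratio of all measured genes from 0.42 to 0.25. A gene with 0 UMIs in DETCs could stand at up to 2.99 CPM, and one with 0 in dermal γδT cells at up to 9.23 CPM. Shares of cells with a UMI rose with the thinning depth, and the shares of *Avil*, *Il12rb2* and *Kir3dl1* were compared with keratinocytes at 1 depth.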

Other observations

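The 6 dermal γδT cells with an *Avil* UMI, picked with their values in view, had *Cd7* at 3683 CPM, *Nkg7* at 2455 and *Ctla2a* at 1629, against 106, 60.2 and 67.2 CPM in the other 29. *Blk*, *Actn2* and *Ramp1* were at 0 in the 6 cells, and were found in 23, 23 and 26 of the 29, unthinned, at a median of 4079 UMIs per cell against 8531. *Krt14*, found in every DETC, had 0 UMIs in the 6 cells, and so had *Kir3dl1*. Their Langerhans markers summed to 29366 CPM, against 1769 in the 29 cells. In 1 of the 6, with 21664 UMIs, they summed to 1199 UMIs or 55345 CPM, and in the other 5 together to 2174 CPM, at *Cd7* 4493, *Nkg7* 2367 and *Ctla2a* 1691 CPM. The part of the cell separation in these values was not tested.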
